A study of Mus musculus with 12 samples.

Results

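The aminoacyl-tRNA synthetase genes were examined in the regrowing liver of mice that had or lacked Cox10, through H3K27ac, the acetyl mark on lysine 27 of histone H3 that active promoters and enhancers carry. Members were taken by name: a capital letter followed by ars, ars1 or ars2, together with Eprs, Farsa and Farsb. This gave 60 of 36387 acetylated regions, carrying 34 of 11240 gene names. Genes whose symbol ends in 2 encode the mitochondrial enzymes (15 genes, 27 regions), and the others encode the cytosolic enzymes (19 genes, 33 regions). RefSeq lists 37 symbols of this form, and Pars2, Vars and Yars2 had no region analysed here.

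Each synthetase joins an amino acid to its matching tRNA, the step that sets the meaning of every codon. The cytosol and the mitochondrion each need a set of enzymes, and all of them are encoded in the nucleus. Gars and Kars, the glycine and lysine enzymes, are exceptions in which a single gene serves both compartments. Cox10 makes a precursor of heme A for cytochrome c oxidase, several subunits of which are built on mitochondrial ribosomes with tRNAs charged by the mitochondrial set. Many cytosolic synthetase genes are textbook targets of ATF4, a transcription factor induced by amino acid shortage and by mitochondrial stress.

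Both groups were mice with a floxed Cox10 allele that received 1 retro-orbital dose of an AAV8 vector. The vector carried GFP in the group labelled wild-type and Cre in the group labelled Cox10-/-. After 4 weeks 70% of the liver was removed, and the regrowing liver was taken on day 2. Mouse ages are not given in the sources used here. AAV8 reaches mainly hepatocytes, and the other cells of the organ keep Cox10. Each genotype had 3 H3K27ac libraries, and the 6 libraries of input DNA were left aside. Nothing in the labels says that each library came from its own animal, so p-values measure the spread between libraries, which may be technical.

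The regions held from 3282878 to 4187377 reads per library. Cox10 itself carried a single region (chromosome 11, 63977336 to 63977787, within intron 5 of 6). It held 14.6, 17.8 and 12.8 normalised reads in wild-type samples and 60.3, 46 and 65.9 in those without Cox10, and it does not check the deletion. Of 6 hepatocyte markers, 5 had regions (58 in all), of which 54 were lower and 2 higher in the knockout on the deposited scale, where 87.2% of all regions were lower and 4.46% higher. With each library set to its median promoter, 36 of the 58 were lower and 5 higher, against 39.6% and 24.7% of all regions. Their summed signal was 11952 to 12436 across wild-type libraries and 3878 to 4410 across knockout libraries. The 4 macrophage and 4 stellate markers had no region, while 2 of 5 endothelial, 2 of 4 biliary and 1 of 4 leukocyte markers had. In the same order of genotypes, summed signal was 521 to 588 and 312 to 388 for the endothelial markers, 97 to 118 and 83 to 98 for the biliary markers, and 121 to 169 and 31 to 36 for the leukocyte marker Ptprc. The part of these shifts in the synthetase values was not tested. Fewer cells of a type and less acetylation per cell cannot be told apart in whole liver.

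RefSeq promoter windows (GRCm38.p6, the assembly also called mm10) were at hand for 26 of the 34 genes, 13 cytosolic and 13 mitochondrial. Each window ran from 250 bases before to 50 bases after a start site. The composite site of C/EBP and ATF proteins, TGATGCAA on either strand, is the kind of element that ATF4 binds. It was in the windows of 4 of 13 cytosolic genes (Aars, Iars, Tars and Yars) and 0 of 13 mitochondrial genes. Of 7469 windows of genes with an acetylated promoter, 0.71% held it, and of all 27025 genes 0.929%. The wider form TGATGNAA, which includes every match of the first, added Gars and a second match in Aars, 9 bases after the first transcribed base. That made 5 of 13 cytosolic and 0 of 13 mitochondrial genes, against 2.1% of the 7469. Of 23 windows of the ATF4 response genes listed further on, 4 held the first form and 6 the wider one.

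The stretches with the match are shown because the match was found in part of the cytosolic set, and 8 of 13 cytosolic windows lacked it as the mitochondrial ones did. Each runs 5′ to 3′ on the gene's strand for 60 bases, with the match in capitals. TTGCATCA is the first form read from the other strand. The match began 112, 30 and 15 bases before the start site in Aars, Gars and Tars, and 7 and 3 bases after the first transcribed base in Iars and Yars. The last bases before the start of Aars2 and Tars2, the mitochondrial partners of Aars and Tars, follow without a match.
Aars (chr8:111033688-111033747, plus strand): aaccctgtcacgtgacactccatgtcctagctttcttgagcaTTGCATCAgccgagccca
Gars (chr6:55037929-55037988, plus strand): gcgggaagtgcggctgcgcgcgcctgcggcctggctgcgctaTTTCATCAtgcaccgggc
Iars (chr13:49682085-49682144, plus strand): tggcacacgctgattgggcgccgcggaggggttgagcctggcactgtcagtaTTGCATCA
Tars (chr15:11399659-11399718, minus strand): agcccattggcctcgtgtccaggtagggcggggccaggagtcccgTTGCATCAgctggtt
Yars (chr4:129189854-129189913, plus strand): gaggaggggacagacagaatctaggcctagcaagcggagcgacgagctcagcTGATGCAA
Aars2 (chr17:45506772-45506831, plus strand): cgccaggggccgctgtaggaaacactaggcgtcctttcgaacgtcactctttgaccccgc
Tars2 (chr3:95754978-95755037, minus strand): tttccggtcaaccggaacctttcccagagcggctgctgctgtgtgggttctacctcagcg

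Other motifs were searched in the same windows on both strands. CACGTG, the E-box of MYC and its relatives, was in 4 of 13 cytosolic windows (Aars, Farsb, Iars and Tars) and 1 of 13 mitochondrial ones (Ears2), against 10.2% of the 7469. TGACGTCA, the cyclic AMP response element, was in 0 of 13 and 0 of 13, against 3.37%. The NRF1 site was also in 0 of 13 and 0 of 13, against 2.2%. Median GC content was 56% in cytosolic and 58% in mitochondrial windows and 61% over the 7469.

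On the deposited scale every mitochondrial synthetase promoter lost acetylation, and the median loss of the cytosolic ones was smaller; with TMM scaling, which sets typical regions level, the direction turned for 29 of 33 genes. Each gene was represented by its region within 1 kb of a start site with the highest mean signal over all 6 libraries. Such a region exists for 33 genes (Nars2 has none). The choice thus used the knockout values too. In Mars1 and Iars the other promoter region had the higher wild-type mean, 186 against 154 and 106 against 105 normalised reads. Those regions changed by -1.29 and -0.95. On the deposited scale 14 of 14 mitochondrial genes fell in the knockout, and 15 of 19 cytosolic genes fell (limma, adjusted p under 0.05). The background was high, since 93.8% of 9663 promoter genes fell and 0.807% rose at the same threshold, so these shares say little about the synthetases. The 4 cytosolic genes not called were Gars, Sars, Mars1 and Wars, and 0 synthetase genes of 33 were called higher by limma, also at an unadjusted p under 0.05 and by edgeR or DESeq2 with the deposited scaling. With edgeR and TMM scaling 18 cytosolic and 8 mitochondrial genes were higher and 0 lower, beside 49.1% of promoter genes higher and 15.7% lower. In 30 of 33 genes the libraries of the 2 genotypes did not overlap, against 93.9% of all promoter genes.

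Sizes of the fall set the compartments side by side. The median log2 change was -0.50 over cytosolic genes (1.42-fold lower, range -0.77 to 0.19), -0.70 over mitochondrial genes (1.63-fold lower, range -1.17 to -0.31) and -0.82 over all promoter genes. All 19 cytosolic genes lay above the median change of all promoter genes, as did 8 of 14 mitochondrial genes. The Mars1 and Iars regions with the higher wild-type means (-1.29 and -0.95) lay below that median. Without Gars and Kars the cytosolic median stayed at -0.50 and 17 of 17 lay above. The difference between the 2 medians was 0.20, and it was 0.31 without wild-type replicate 3. With TMM scaling it was also 0.20, which is no check, since rescaling a library shifts both compartments alike. Differences between groups of genes were not tested.

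**Figure D1:**
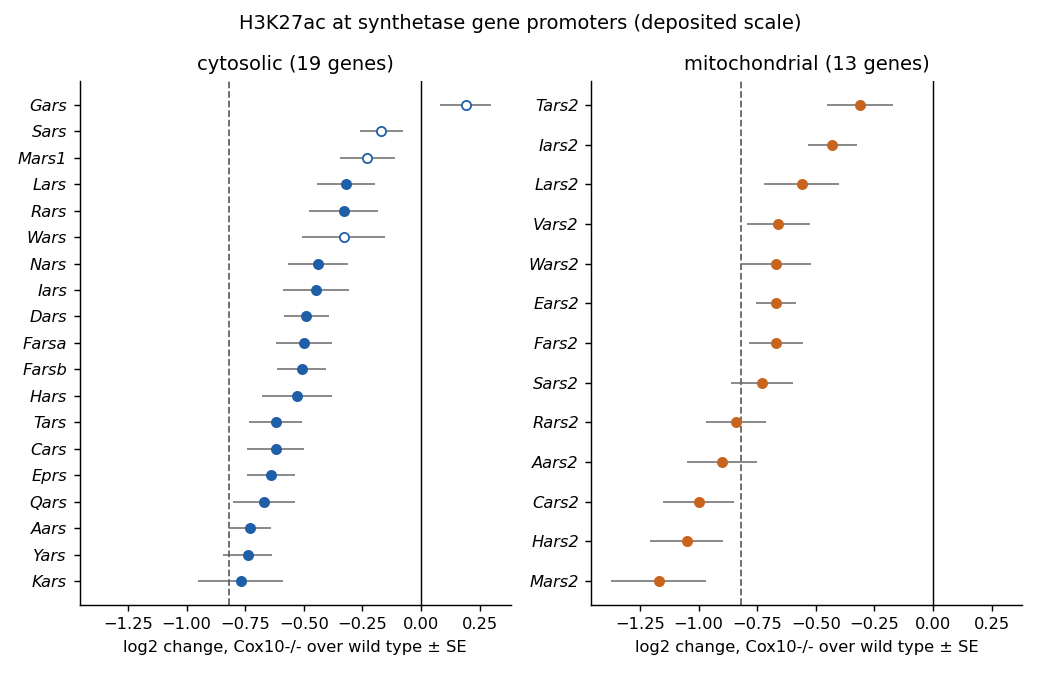
Log2 change of H3K27ac at the promoter region of each synthetase gene, knockout over wild type, with the limma standard error as bars. Filled points passed the threshold, open points did not, and the dashed line is the median of all promoter genes at -0.82. The 19 cytosolic genes all sit right of that line, and 5 of the 13 mitochondrial genes plotted sit left of it.

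In wild type the compartments started from the same density. Median signal per kb of region was 280 over cytosolic and 278 over mitochondrial genes, as over all promoter genes (278). In the knockout it was 200, 171 and 153. Cytosolic regions were wider, with a median of 555 bases against 408. By library, the median log2 level of cytosolic genes exceeded that of mitochondrial genes by 0.51, 0.55 and 0.59 in wild-type samples and by 0.70, 0.79 and 0.75 in those without Cox10. These differences did not overlap between genotypes. Across the 33 genes, the log2 change had a Pearson r of 0.34 with region length (Spearman 0.34) and of -0.25 with wild-type density (Spearman -0.24). Genes of a library share its depth and are not independent.

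A second scale set each library's median promoter region to 0, which removes a common fall of 0.91 (log2) and asks how a gene stood against the typical promoter. On this scale 16 of 19 cytosolic genes were above the typical promoter and 0 below, and 5 of 14 mitochondrial genes were above and 0 below (limma, adjusted p under 0.05). No representative region was below at an unadjusted p under 0.05 either, or by edgeR or DESeq2, but that of Mars2 was below without wild-type replicate 3 (-0.54). The Mars1 region with the higher wild-type mean was below (-0.39, limma adjusted p = 0.00241), and that of Iars did not pass (-0.04). Of all promoter genes, 32.0% were above and 22.0% below. The 5 mitochondrial genes were Tars2, Iars2, Lars2, Ears2 and Fars2, and 3 mitochondrial genes were above without knockout replicate 1 and likewise without wild-type replicate 1. The cytosolic genes not called were Qars, Yars and Kars. The median centred change was 0.40 over cytosolic, 0.21 over mitochondrial and 0.09 over all promoter genes. Whether the common fall belongs to the tissue or to the scaling was not tested.

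Gars, the glycine enzyme of both compartments, stood highest. Its main region lies just after the start on chromosome 6 from 55038005 to 55038826 and held 199.5, 158.9 and 181.5 normalised reads in wild-type samples and 187.8, 238.1 and 190.9 in those without Cox10. The genotypes overlapped. The change on the deposited scale was 0.19 (log2, SE 0.108, limma adjusted p = 0.0876), and without knockout replicate 1, knockout replicate 3 or wild-type replicate 1 it passed the threshold as higher. Against the typical promoter it was 2.14-fold higher (log2 1.10, SE 0.0929, limma adjusted p = 1.3e-18).

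Kars, the other enzyme of both compartments, stood lowest of the cytosolic genes. Its region on chromosome 8 from 112010921 to 112011182 held 69.2, 65.7 and 63.9 normalised reads in wild-type samples and 35.7, 46 and 34.9 in those without Cox10. All knockout libraries were lower, 1.7-fold on average (log2 -0.77, SE 0.182, limma adjusted p = 4.8e-05). Relative to the typical promoter Kars did not pass (0.14, adjusted p = 0.484). The 2 shared genes thus marked the upper and lower ends of the cytosolic range. The start of Terf2ip, a telomere protein gene, lies within 500 bases of the Kars region.

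Sars, which charges serine tRNAs and the selenocysteine tRNA, kept most of its signal. Its wide region on chromosome 3 from 108443677 to 108445161 held 345.9, 320.5 and 345.1 normalised reads in wild-type samples and 334, 301 and 269 in those without Cox10. The genotypes overlapped, and the log2 change of -0.17 (SE 0.0916) did not pass (limma adjusted p = 0.0765). Relative to the typical promoter Sars was 1.67-fold higher (log2 0.74, limma adjusted p = 3.0e-16).

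Mars1, the methionine enzyme whose product also loads the initiator tRNA, had 138.4, 163 and 159.8 normalised reads in wild-type samples and 132.6, 138 and 122 in those without Cox10, on chromosome 10 from 127311237 to 127311680. Every knockout library lay below every wild-type one, by little. The log2 change was -0.23 (SE 0.118, limma adjusted p = 0.0591) on the deposited scale and 0.68 (SE 0.104, adjusted p = 2.2e-08) on the centred one.

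Lars, the leucine enzyme that also senses leucine for the growth kinase mTORC1, held 130.4, 146.5 and 140.6 normalised reads in wild-type samples and 117.3, 114.6 and 101.5 in those without Cox10. Rars, the arginine enzyme, held 90.5, 101.3 and 78 in wild-type samples and 75.6, 74.3 and 63.6 in those without Cox10. In both, the knockout libraries were the lower ones without overlap. Lars fell 1.25-fold (log2 -0.32, SE 0.124, limma adjusted p = 0.0109) and Rars 1.26-fold (log2 -0.33, SE 0.148, adjusted p = 0.0301). The fall of Lars did not pass without wild-type replicate 2. That of Rars did not pass without wild-type replicate 1, wild-type replicate 2 or knockout replicate 3, nor with DESeq2. Both had a centred change of 0.58. Wars, the tryptophan enzyme, which is also an interferon-induced gene, changed by -0.33 without passing (SE 0.177, limma adjusted p = 0.0645). Without knockout replicate 1 Wars and Sars passed as lower, and without wild-type replicate 1 Mars1 did, so 13 to 17 cytosolic genes fell as each library was left out. Of all promoter genes, 92.1% to 93.7% fell in these fits.

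The remaining 12 cytosolic genes changed by -0.44 to -0.74. In order of change these were Nars (-0.44), Iars (-0.45), Dars (-0.49), Farsa (-0.50), Farsb (-0.51), Hars (-0.53), Tars (-0.62), Cars (-0.62), Eprs (-0.64), Qars (-0.67), Aars (-0.73) and Yars (-0.74). Neighbours in this order differed by less than their standard errors, which ran from 0.0903 to 0.148. Farsa and Farsb encode the 2 kinds of subunit of the phenylalanine enzyme, and their changes differed by 0.01. Eprs joins the glutamate and proline enzymes in a single protein.

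Structure and assembly did not divide the cytosolic genes by much. Synthetases form classes I and II by the fold of the catalytic domain. The median change was -0.39 over 8 class I genes and -0.51 over 10 class II genes, Eprs belonging to both. The 8 genes whose proteins join the multisynthetase complex, a large particle of the cytosol, had a median of -0.47, against -0.51 over the other 11. Among mitochondrial genes the medians were -0.67 over 8 class I genes and -0.82 over 6 class II genes. The 5 cytosolic genes with TGATGNAA in their window had a median centred change of 0.29 (range 0.17 to 1.10), and the 8 without it 0.40 (range 0.14 to 0.74).

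**Figure D2:**
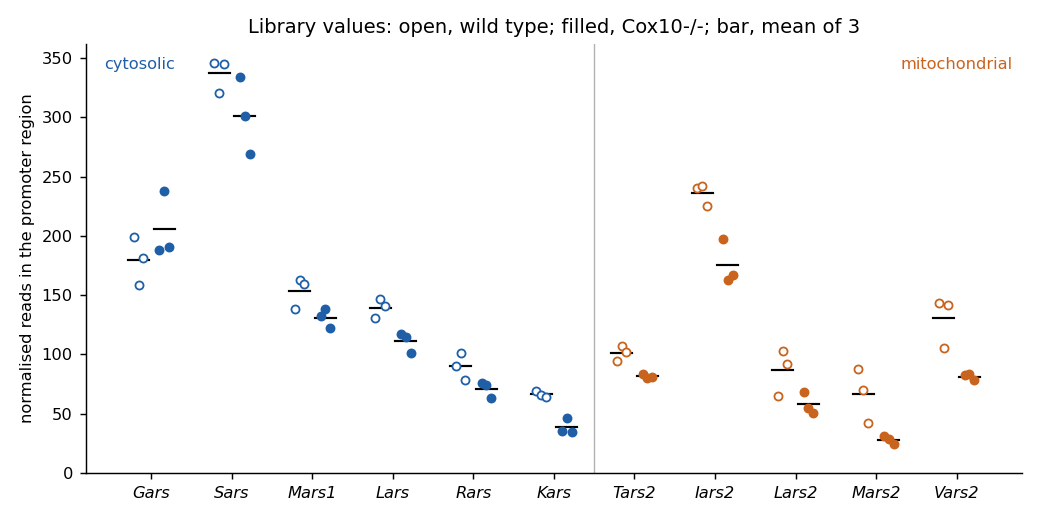
Normalised reads in the promoter region of 11 synthetase genes, each point a library (open, wild type; filled, knockout) and each bar the mean of 3. Gars and Sars overlap between genotypes, as does Lars2 among the mitochondrial genes, while Kars separates clearly. Mars2 separates on this scale, with wild-type libraries spread from 42.2 to 87.8.

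Tars2, the mitochondrial threonine enzyme, fell least in its set. Its region on chromosome 3 from 95754428 to 95754866 held 94.5, 106.8 and 102.2 normalised reads in wild-type samples and 83.3, 79.9 and 81.1 in those without Cox10. The knockout libraries were all lower, by 1.24-fold (log2 -0.31, SE 0.14, limma adjusted p = 0.031). This fall did not pass without knockout replicate 2, without wild-type replicate 2 or without wild-type replicate 3, nor with DESeq2.

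Iars2, the mitochondrial isoleucine enzyme, held 240.8, 242.4 and 224.9 normalised reads in wild-type samples and 197.2, 163 and 167.4 in those without Cox10. The groups did not overlap, and the fall was 1.34-fold (log2 -0.43, SE 0.105, limma adjusted p = 8.0e-05). Lars2, the mitochondrial leucine enzyme, held 65.2, 102.7 and 92 in wild-type samples and 68, 54.9 and 50.8 in those without Cox10. Wild-type replicate 1 lay below knockout replicate 1, and the fall was 1.47-fold (log2 -0.56, SE 0.159, adjusted p = 0.00062).

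Mars2, the mitochondrial methionine enzyme, fell furthest of all. Its region on chromosome 1 from 55237264 to 55237557 held 87.8, 69.8 and 42.2 normalised reads in wild-type samples and 31.4, 28.2 and 24.2 in those without Cox10. The wild-type libraries were widely spread, yet each lay above every knockout library on the deposited scale. On the centred scale wild-type replicate 3 (-1.65) lay below every knockout library (-1.24, -1.36 and -1.44). The fall was 2.25-fold (log2 -1.17, SE 0.203, limma adjusted p = 4.9e-08). Vars2, the mitochondrial valine enzyme, held 143.7, 105.5 and 141.9 in wild-type samples and 82.4, 83.1 and 78 in those without Cox10, 1.58-fold lower (log2 -0.66, SE 0.134, adjusted p = 2.2e-06).

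The other mitochondrial genes described here fell between 1.59-fold and 2.08-fold. Hars2 (-1.05), Cars2 (1.99-fold lower), Aars2 (-0.90) and Rars2 (-0.84) fell below the median of all promoter genes. Sars2 (-0.73), Wars2 (-0.67), Fars2 (-0.67) and Ears2 (-0.67) fell less than it. Several of these regions reach or adjoin the start of another gene and cannot be assigned to the synthetase alone. The Ears2 region contains the start of Ubfd1. Starts of Lyrm4, Orc3 and Mrps12 lie within 500 bases of the Fars2, Rars2 and Sars2 regions, and that of S100pbp within 500 bases of the Yars region.

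For 13 amino acids both compartments had a promoter region, giving 14 pairs because phenylalanine has 2 cytosolic genes. The cytosolic gene fell less in 12 of 14 pairs, with a median gap of 0.29 (log2). Library ratios of the pair did not overlap between genotypes in 7 of 14 pairs, among them threonine, where the cytosolic gene fell further. Pairs that share a mitochondrial gene are not independent. Methionine had the widest gap, 0.94, with log2 ratios of Mars1 to Mars2 of 0.65, 1.21 and 1.90 in wild-type samples and 2.04, 2.25 and 2.28 in those without Cox10. Here the wild-type ratios varied most, as Mars2 did. The Mars1 region with the higher wild-type mean changed by -1.29, further than Mars2 (-1.17). Isoleucine had the smallest gap, -0.02, with ratios of -1.26, -1.37 and -0.88 in wild-type samples and -1.35, -1.08 and -1.15 in those without Cox10, which overlapped. Iars alone held 99.8, 93.1 and 121.4 normalised reads with Cox10 and 76.5, 76.7 and 75 without it, lower in every knockout library. The other Iars promoter region changed by -0.95, further than Iars2 (-0.43). Threonine went the other way, with a gap of -0.31 and ratios of 0.91, 1.04 and 1.15 in wild-type samples and 0.74, 0.83 and 0.61 in those without Cox10. That pair was singled out after its values were seen.

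**Figure D3:**
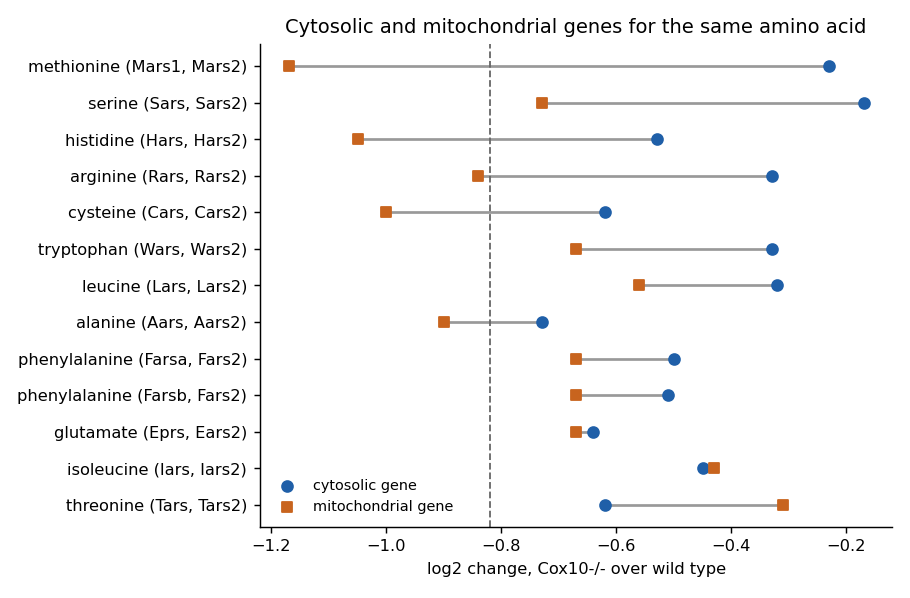
Log2 change, knockout over wild type, of the cytosolic (circles) and mitochondrial (squares) gene for the same amino acid, ordered by the gap between them, with the median of all promoter genes dashed. The circle lies right of the square in 11 of the 13 pairs plotted, widest for methionine at 0.94, and left of it for isoleucine and threonine.

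Hars and Hars2, named after their values were seen, gave a comparison within a single stretch of chromatin. In RefSeq the 2 histidine genes share 4 bases, and their regions on chromosome 18 lie 96 bases apart, from 36782716 to 36783178 and from 36783274 to 36783651. The Hars side held 99.8, 93.1 and 93.3 normalised reads in wild-type samples and 64.6, 70.2 and 62.1 in those without Cox10. The Hars2 side held 106.4, 102.7 and 95.9 in wild-type samples and 51.8, 52.5 and 41.7 in those without Cox10. The sides were close to level in wild type (log2 ratio of Hars to Hars2 -0.09, -0.14 and -0.04), and the Hars side was higher in every knockout library (0.31, 0.41 and 0.57). Hars fell 1.45-fold and Hars2 2.08-fold.

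Second promoter regions fell further than the main ones in 8 of 9 genes, and less in Tars2. The main region was picked by its mean over all 6 libraries, so a region that falls further more readily counts as second. This comparison thus cannot show that second regions lose more. The 9 second regions were those of Aars, Farsb, Gars, Iars, Mars1, Nars, Tars, Tars2 and Wars2. Their median change was -0.97, against -0.87 over all promoter regions. Of these 9 regions, 8 fell, beside 92.3% of all promoter regions, so the count says little about them. That of Tars2, near the start of Ecm1, did not pass (-0.12, against -0.31 at its main region). For 6 cytosolic genes the 2 regions lie on either side of the RefSeq start, and in 6 of 6 the upstream region fell further. This comparison was chosen after its values were seen. The median change was -0.48 downstream and -1.02 upstream, a median gap of 0.60. Over 1793 genes with regions on both sides, the upstream one fell further in 57.6%, with a median gap of 0.08 (quartiles -0.21 and 0.35). In 6 of 6 the downstream region is also the one with the higher mean over all 6 libraries, and the part of signal strength in the gap was not tested.

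Mars1 showed the widest gap, 1.06. Its upstream region, from 127311862 to 127312418, fell from 208.9, 167.1 and 182.8 normalised reads in wild-type samples to 68.8, 84.7 and 72.7 in those without Cox10, 2.45-fold (log2 -1.29, SE 0.127, limma adjusted p = 1.3e-19). In wild type that region outweighed the downstream one, and in the knockout it was the weaker one in all 3 libraries. For Gars the upstream region went from 106.4, 95.9 and 85.6 to 68.8, 54.9 and 62.9 (log2 -0.62, SE 0.15, limma adjusted p = 6.9e-05) while its downstream region did not pass. Farsb had a gap of 0.69, Iars 0.50, Tars 0.40 and Aars 0.28. The ratios of Aars and Tars overlapped between genotypes, and those of the other 4 were higher without Cox10 in every library, as in 25.1% of the 1793 genes, while 16.8% were lower in every library.

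**Figure D4:**
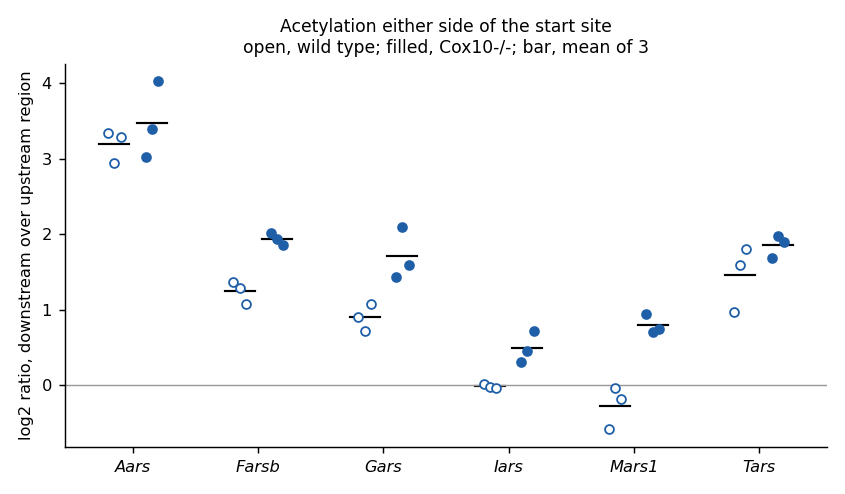
Log2 ratio of downstream to upstream signal at the 6 cytosolic genes with a promoter region on each side of the start, each point a library (open, wild type; filled, knockout) and each bar the mean of 3. The knockout mean is higher for all 6, and for Mars1 the ratio goes from below 0 to above 0.

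Away from promoters, 18 regions carried synthetase names, which mark the nearest gene and need not be the gene they act on. On the deposited scale 13 fell and 5 rose, against 83.2% and 6.96% of all 20407 such regions. On the centred scale 12 were below and 6 above, against 50.6% and 22.4%. The regions cluster, so they are not independent, and library values of Dars, Fars2 and Aars were chosen after their values were seen.

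The 5 rises lay inside Dars and Nars2. Dars, the aspartate enzyme, had 3 regions in intron 4 of 15, from 17421 to 19345 bases after the start. The largest, from 128399410 to 128399995 on chromosome 1, went from 38.6, 37 and 35.8 normalised reads in wild-type samples to 88.4, 77.5 and 68.2 in those without Cox10, 2.06-fold (log2 1.04, SE 0.177, limma adjusted p = 2.0e-08). Its neighbours rose 2.19-fold and 3.73-fold, the latter from 6.23 ± 2.22 to 25.1 ± 1.90 normalised reads (SD, n = 3). Meanwhile the Dars promoter fell 1.41-fold, from 355.2, 287.6 and 319.5 to 241.3, 241.3 and 200. Nars2, the mitochondrial asparagine enzyme, had 2 weak regions in intron 5 of 13 on chromosome 7. They rose from 14.2 ± 1.98 to 29.2 ± 0.813 (2-fold, limma adjusted p = 0.00136) and from 19.4 ± 2.69 to 31.4 ± 8.22 (1.56-fold, adjusted p = 0.0219; SD, n = 3).

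Fars2, the mitochondrial phenylalanine enzyme, had 8 of the falls. They form a group of 5 in intron 6 of 6, from 341888 to 349840 bases after the start, and a group of 3 beyond the gene, from 459904 to 461919 bases. All 8 fell, by 2.73-fold to 5.11-fold, with a median log2 change of -2.02 against -1.28 over all regions away from promoters. The strongest, on chromosome 13 from 36577547 to 36578569, went from 294, 295.8 and 310.6 normalised reads in wild-type samples to 92.6, 85.5 and 72 in the knockout libraries (log2 -1.84, SE 0.114, limma adjusted p = 5.4e-38). The Fars2 promoter itself fell 1.59-fold, from 171.6, 193.1 and 191.7 to 119.8, 110.6 and 118.2.

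Aars, the alanine enzyme, had 6 regions on chromosome 8, and the 3 that follow its main one fell furthest. Its main region, from 111033843 to 111035105, went from 427, 389 and 447.3 normalised reads to 255.8, 254.2 and 250.8 (1.66-fold lower, log2 -0.73, SE 0.0903, limma adjusted p = 1.3e-13). The next 3 regions, up to 3498 bases after the start, fell 3.33-fold, 3.44-fold and 3.55-fold. A region in the 3′ UTR, close to the start of Exosc6, fell 1.52-fold. In intron 19 of 20 of Lars2 a region fell 3.29-fold (log2 -1.72, SE 0.201, adjusted p = 6.3e-15).

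**Figure D5:**
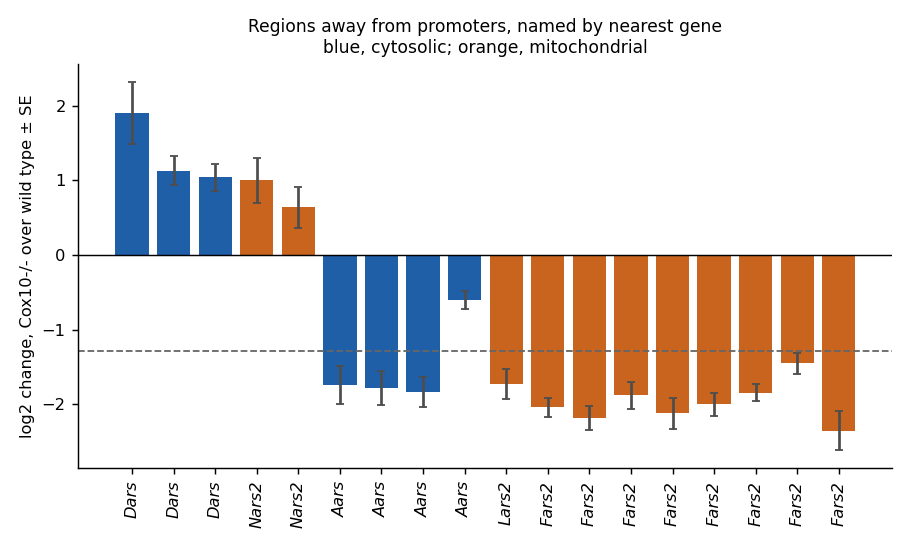
Bars give the log2 change, knockout over wild type, of the 18 regions away from promoters named for a synthetase, with the limma standard error as whiskers and the median of all such regions dashed at -1.28. The 3 Dars and 2 Nars2 regions rise, and the 8 Fars2 regions fall below the dashed line.

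Other genes of the charging pathway were read from fixed lists in the same way. Of all promoter genes, 93.8% fell on the deposited scale, so falls in these lists say little about them. On the centred scale 32.0% were above and 22.0% below. The scaffold proteins Aimp1 and Aimp2 of the multisynthetase complex both fell on the deposited scale, and on the centred scale Aimp1 was above the typical promoter (0.25, adjusted p = 0.00387) and Aimp2 did not pass. Of 4 proofreading and synthetase-like genes, 4 fell, and Dtd1 (0.43), which clears D-amino acids from tRNA, and Prorsd1 (0.29) were above the typical promoter. Gatc and Qrsl1, subunits of the enzyme that makes mitochondrial glutamine tRNA in place of a synthetase, fell by 0.72 and 0.63 on the log2 scale and did not pass on the centred one. Sepsecs, which forms selenocysteine on its tRNA, fell 2.52-fold and was below the typical promoter (-0.43, limma adjusted p = 5.3e-05). Pstk, the kinase of the same pathway, fell 1.86-fold and did not pass on the centred scale (0.01, adjusted p = 0.947).

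Elongation factors include the carriers of charged tRNA to the ribosome (Eef1a1 in the cytosol, Tufm in the mitochondrion), their exchange factors, and the mitochondrial factors for translocation (Gfm1) and ribosome recycling (Gfm2). The 4 mitochondrial ones (Tufm, Tsfm, Gfm1 and Gfm2) all fell on the deposited scale, as did 93.8% of all promoter genes. Their median was -0.71, and 0 of 4 passed on the centred scale. Of 3 cytosolic ones, 3 fell with a median of -0.65. Eef1a1 (0.26) and Eef1g (0.38) were above the typical promoter, as were 32.0% of all promoter genes. Xpot, the tRNA export factor (0.54), and Trnt1, which adds the tRNA end to which the amino acid is joined (0.38), were above it too, and Elac2 did not pass. Among genes sensing uncharged tRNA, Eif2ak4, the kinase GCN2, was above it (0.32), as was its substrate Eif2s1 (0.36), and Gcn1 did not pass (-0.03).

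Of 25 listed genes of the ATF4 amino acid response, 18 had a promoter region. On the deposited scale 8 of 18 fell and 6 rose (93.8% and 0.807% of all promoter genes), with a median of -0.18 against -0.50 over cytosolic synthetases. On the centred scale 15 were above and 1 below (32.0% and 22.0% of all promoter genes), with a median of 0.72 against 0.40. The difference between these lists was not tested. Trib3, a pseudokinase gene, went up by 1.06 on the log2 scale (limma adjusted p = 5.4e-16) and Nupr1, a stress-induced chromatin factor gene, by 1.16 (limma adjusted p = 6.7e-13). Gpt2, an alanine aminotransferase gene, fell 2.21-fold and was below the typical promoter.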

How the data were processed

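The authors deposited 1 table of normalised read signal per region for 6 H3K27ac libraries, with their own log2 fold changes, test score and p-values. Per the submitters' processing notes the tools were BWA 0.7.5, MACS and deepTools 3.5.0 and the build mm10; their roles are not recorded. Spike-in chromatin was added, per the labels' protocols, but the origin of the size factors is not stated there. Of 36446 rows, 59 repeats were dropped. Values were whole reads divided by a library's size factor (100% of values whole within 0.01 reads), and edgeR 4.0.16 and DESeq2 1.42.0 were run on those reads as alternatives.

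The main test was limma 3.58.1 (R 4.3.3) on log2(value + 1) over all 36387 regions, with a variance trend, no filter and no block, and Benjamini-Hochberg adjustment over all regions. Fold changes are on the log2(value + 1) scale. It was checked on simulated data. The centred scale subtracts each library's median over promoter regions. Coordinates are as in the table, whose counting base is not stated, and chromosome 16 was not analysed here. By the authors' deposited table, of 33 synthetase promoters 27 were lower and 0 higher. Members and lists were chosen with earlier results of these data known. Every gene with a promoter region is named except 1, which is counted but not reported here, and library values are given for the 5 genes per compartment with the largest centred change, for Gars and Kars, and for the pairs with the largest and smallest gap; others were chosen after their values were seen.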

Additional observations from a re-analysis of the deposited data

How the results depend on the processing

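Counts of synthetase genes called, and their median changes, were recomputed under each alternative. Scaling mattered most. With edgeR and TMM scaling, 0 cytosolic and 0 mitochondrial genes were lower and 18 and 8 were higher, with medians of 0.54 and 0.34, while 4741 of 9663 promoter genes were higher and 1518 lower. Centring on the median of all regions gave medians of 0.55 and 0.35, with 18 cytosolic and 8 mitochondrial genes above. In that setting 49.2% of promoter genes were above and 15.4% below, with a median of 0.23. Under TMM scaling the direction on the deposited scale turned for Aars (0.32), Aars2 (0.14), Cars (0.42), Cars2 (0.04), Dars (0.55), Ears2 (0.38), Eprs (0.41), Fars2 (0.38), Farsa (0.54), Farsb (0.54), Hars (0.51), Iars (0.59), Iars2 (0.63), Kars (0.28), Lars (0.73), Lars2 (0.46), Mars1 (0.82), Nars (0.62), Qars (0.38), Rars (0.72), Rars2 (0.21), Sars (0.89), Sars2 (0.32), Tars (0.42), Tars2 (0.74), Vars2 (0.37), Wars (0.72), Wars2 (0.36) and Yars (0.31). The difference between the compartments' medians was 0.20 under TMM as in the reported fit. That agreement was fixed in advance, because rescaling a library shifts both compartments alike and cancels in the difference. TMM sets its own scale by construction.

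With the mean over all regions of a gene, medians were -0.62 and -0.84 on the deposited scale and 0.28 and 0.06 centred, 1 cytosolic and 1 mitochondrial gene were higher on the deposited scale, and 1 and 2 were below on the centred one. Dars (0.89) turned on the deposited scale and Aars (-0.38), Fars2 (-0.93) and Lars2 (-0.23) on the centred one, because regions away from the promoter then count. DESeq2, and an adjusted p under 0.01, each left 3 mitochondrial genes above on the centred scale, and 12 and 13 cytosolic genes, down from 16. Of all promoter genes, 24.2% and 24.7% were then above, down from 32%. Aars, Cars and Hars were lost under both settings, and Tars with DESeq2.

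Leaving out each library in turn gave 13 to 17 cytosolic genes lower and 0 to 1 higher on the deposited scale. Of all promoter genes, 92.1% to 93.7% were then lower and 0.662% to 0.911% higher. On the centred scale 3 to 6 mitochondrial genes were above and 0 to 1 below. Promoter genes were above in 28.4% to 29.6% and below in 20.1% to 20.8%. The difference between medians was 0.15 to 0.31, and mitochondrial medians were -0.80 to -0.68 (deposited) and 0.12 to 0.23 (centred). The replicate block gave the same counts, with 16 cytosolic and 5 mitochondrial genes above on the centred scale. Deviations of same-numbered libraries correlated at -0.000917, 0.00737 and 0.0054, and those of differently numbered ones at -0.0125 to 0.00684. Shifts of a whole library were removed first, so these values cannot show that same-numbered libraries share nothing. The upstream region fell further in 6 of 6 genes under every setting, an alternative added after seeing the data. Rescaling a library shifts both regions of a gene alike, so the scaling settings are no check of this pattern. The main promoter region of each synthetase gene held at least 32 reads per library and the second promoter regions at least 19. The weakest Dars intron region held as few as 3.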
